A study of Schizosaccharomyces pombe with 18 samples.

Results

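The transcriptome of fission yeast (Schizosaccharomyces pombe) lacking the chromatin remodeler Mit1 was compared with that of wild type. The comparison used 6 of the 18 RNA-seq libraries of the study, 3 of strain PY 9841 (mit1D) and 3 of strain PY 42 (WT), and the 6628 of 7018 annotated rows (genes and non-coding transcripts) that had at least 1 FPKM (fragments per kilobase of transcript per 1e6 fragments) in 3 or more of these 6 libraries. The remaining libraries came from strains deleted for clr1, clr2, clr3 or chp2, with 3 biological replicates for each genotype. Both strains were h- and carried ade6-210 and arg3-D4 together with his3-D1, the allele leu1-32 and ura4-D18, so every auxotrophic allele was shared, and mit1D additionally carried mit1D::Natmx6, a drug-resistance cassette in place of the gene. A further strain used here, PY 9844 (chp2D), had the same alleles with chp2D::KanR. Cultures of 25 ml in YES, a rich medium, were grown at 25 °C with shaking at 170 rpm, and total RNA was depleted of ribosomal RNA before stranded library preparation. One strain stood for each genotype. The labels call the replicates biological but do not say how the cultures were started.

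Mit1 is an ATP-dependent remodeler of the Snf2 family and a subunit of SHREC, a complex that represses transcription in heterochromatin. In this complex Clr3 removes acetyl groups from histone H3, Clr1 and Clr2 are needed for assembly and recruitment, and Chp2, of the HP1 family, binds histone H3 methylated at lysine 9 and brings the complex to heterochromatin. The major heterochromatic domains of fission yeast are the pericentromeric repeats, the silent mating-type region and the chromosome ends.

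In the deposited table the columns of mit1D and chp2D bear consecutive names of one library series, and those of WT bear names of another. Genotype and library series therefore cannot be told apart in mit1D against WT. The comparison of mit1D with chp2D sets group means of 1 series side by side and takes no mean from WT. Its scaling, SE and adjusted p do rest on all 18 libraries. Its rows were chosen by their levels in mit1D and WT. Recovered depth was 46.5 to 101.8 M (1e6) reads in WT, 29.3 to 46.5 in mit1D and 26.2 to 32.9 in chp2D. Levels below are FPKM divided by a scaling factor for each library, as mean ± SD with n = 3. A fold is a ratio of 2 such means, and log2 fold changes (± SE) are on the log2(scaled FPKM + 1) scale, which understates changes of weakly expressed rows. "Changed", "rose" and "fell" mean an adjusted p under 0.05 in limma with Benjamini-Hochberg adjustment over all 6628 rows. Markers of the labelled cell type were mixed. The M-factor pheromone genes mfm1, mfm2 and mfm3, typical of h- cells, were present in WT at 6.67 ± 0.776, 98.5 ± 5.46 and 19.4 ± 1.80, whereas mat1-Mc, which encodes an M-specific transcription factor, was listed at 0 in all 9 libraries and mat1-Mi lay between 0 and 1.86. The P-cell receptor and pheromone genes map3 and map2 had levels of 21.6 ± 0.916 and 35.1 ± 0.733. The gene of the shared ura4-D18 allele, ura4, was listed at 0 in every library. Those of arg3-D4 and his3-D1 did have reads. The WT libraries held 342, 253 and 514 reads of arg3 and 2199, 1419 and 3014 of his3. In mit1D these were 137, 133 and 237 for arg3 and 705, 710 and 1244 for his3. Of the 4 tested marker genes 1 rose and 1 fell (50%, against 27.3% of all rows).

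The deleted gene was read first. Scaled FPKM of mit1 (SPBP35G2.10, II:981944-986422, plus strand) was 13.7, 13.2 and 13.6 in the WT libraries and 0.00774, 0.0153 and 0.0243 in the mit1D libraries, which held 8 reads of the gene in all. It was 13.4 ± 0.582 in chp2D. The log2 fold change in mit1D was -3.83 ± 0.04. The row of mit1 passed the filter only through WT, so a fall was the one outcome left to it. The non-coding row SPNCRNA.1401 (II:982042-983573), annotated inside mit1 on the other strand, had 4904 reads in WT and 0 in mit1D, at least 766-fold lower per sequenced read with a floor of 3 reads over the group. The remaining subunits of the complex did not pass the test, and their values lay close together. The deacetylase gene clr3 stood at 35.7 ± 0.154 in WT and 34.0 ± 0.714 in mit1D. For chp2 the levels were 13.1 ± 0.583 and 13.0 ± 0.308, for clr1 13.0 ± 0.638 and 13.2 ± 0.426, and for clr2 19.8 ± 0.504 and 20.6 ± 0.0627.

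The rows beside the deletion were higher. The gene on the far side of mit1, nbr1 (II:986383-988594, minus strand), encodes a cargo receptor of selective autophagy, and its row overlaps that of mit1 by 40 bases. Its level was 22.2, 22.6 and 21.3 in WT and 96.8, 107 and 112 in mit1D, a 4.78-fold rise (log2 fold change 2.20 ± 0.05, adjusted p = 5.8e-14). The groups lay far apart, and chp2D at 20.3 ± 1.03 was near WT. On the other side, usp103, a component of the U1 snRNP that overlaps mit1 by 35 bases, rose from 23.9 ± 0.798 to 40.6 ± 0.778, with chp2D at 22.0 ± 0.876. The hydrolase gene ysa1 beyond nbr1 rose from 38.3 ± 1.83 to 43.4 ± 0.0842, against 36.8 ± 0.827 in chp2D. Of 13 rows within 10 kb of mit1, with mit1 and SPNCRNA.1401 included, 9 were higher and 2 lower than in WT, and 3 were higher and 2 lower than in chp2D. Over all tested rows, 27.3% changed against WT and 0.166% against chp2D.

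Across the genome 1810 rows changed against WT, 979 higher (14.8%) and 831 lower (12.5%). The changes were small. The median absolute log2 fold change was 0.20 among changed rows and 0.082 among all rows, and 1657 of the 1810 (91.5%) lay under 1.5-fold on the log2 scale. Only 31 rises (0.468% of rows) and 22 falls (0.332%) reached 2-fold. The 3 mit1D values all lay above or all below the 3 WT values in 2962 rows (44.7%), and in 1758 of the changed ones. In 1009 changed rows (15.2% of all rows) the mit1D values also lay outside all 12 libraries of WT and the clr deletions. The columns of the clr deletions bear names of the same series as those of WT. Any shift between the series would thus enter this count too, and its part was not tested. How many unchanged rows lay outside these 12 libraries was not counted. The balance of rises and falls depended on the scaling: 54.1% of changed rows were higher with the scaling factors and 39.4% with FPKM as deposited. Of the 23 tested rows with a mean WT level under 1, 15 rose and 0 fell, which the filter on low values favours, since 12 rows passed it only through mit1D and all 12 of these changed. Likewise 13 rows passed it only through WT, which left a fall as the one outcome, and 10 of these changed.

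**Figure D1:**
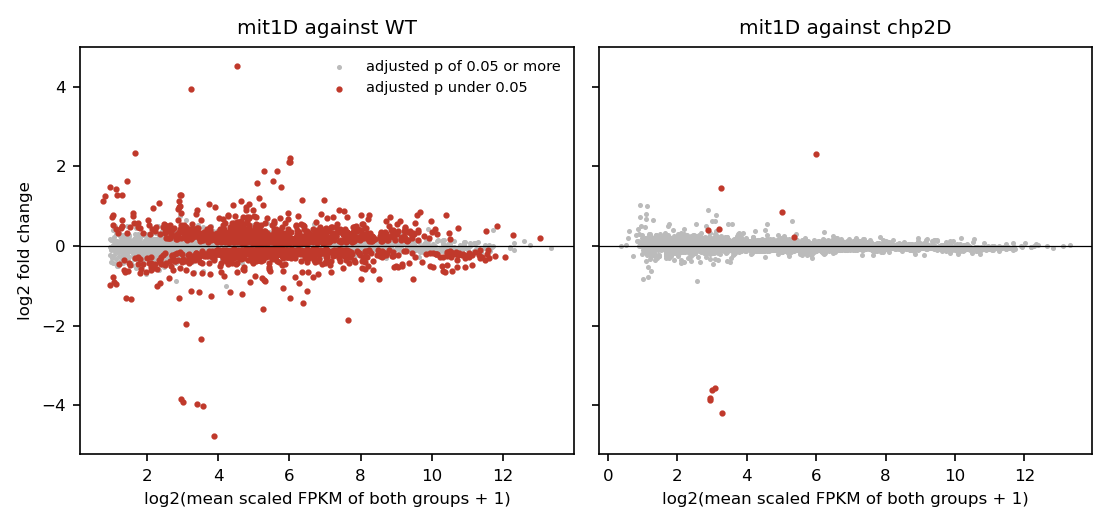
Log2 fold change (vertical axis) against the log2 mean level of both groups plus 1 (horizontal axis) for 6628 rows, with mit1D against WT on the left and mit1D against chp2D on the right; red points have an adjusted p under 0.05 by limma. Of all rows 1810 are red on the left and 11 on the right.

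Set beside chp2D, the mit1D profile differed at few rows. Only 11 rows changed, 6 higher and 5 lower in mit1D, with 330 at an unadjusted p under 0.05, and 6523 rows (98.4%) differed by less than 0.25 on the log2 scale. The median absolute log2 difference was 0.034 over all rows and 0.040 over the rows changed against WT. Besides mit1, SPNCRNA.1401, nbr1, usp103, ysa1 and chp2 itself (4.08 ± 0.236 in chp2D), the 11 held 3 rows in a block on chromosome III and the overlapping pair SPCC569.02c and SPNCRNA.1298. These 11 and the rows flanking the block were named after their values were seen. SPCC569.02c (III:2432505-2433520) stood at 7.397 ± 0.287 in mit1D, 5.34 ± 0.699 in chp2D and 5.55 ± 0.484 in WT, and the difference from chp2D was 0.41 ± 0.07 on the log2 scale (adjusted p = 0.028). SPNCRNA.1298 on the other strand had 9.47 ± 0.325, 6.87 ± 0.840 and 6.88 ± 0.700. The 2 comparisons of these deletions with WT share the WT libraries, so levels in chp2D are given below as values beside those of mit1D.

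The block on chromosome III had nearly no reads in mit1D. Its 3 rows passed the filter only through WT, which left a fall against WT as the one outcome. The protein-coding row SPCC663.08c (III:1647689-1648808) had 39.3, 21.9 and 21.4 in WT, 0.0311, 0 and 0.0195 in mit1D, and 17.3, 18.4 and 17.3 in chp2D. These came from 7054 reads in WT and 2 in mit1D, a ratio per sequenced read of 1652 with an exact 95% interval of 457 to 13642 that covers counting error only. The pseudogene SPCC663.07c went from 18.9 ± 8.20 to 0.222 ± 0.104, and SPNCRNA.1213, which overlaps both on the other strand, from 21.4 ± 8.01 to 0.328 ± 0.0661. Against chp2D the log2 differences were -4.20 ± 0.21, -3.60 ± 0.21 and -3.55 ± 0.20 (adjusted p = 3e-09, 1.1e-08 and 1.1e-08 by limma). Whether this DNA is present in the mit1D strain was not tested. The flanks kept their reads: osr1 stood at 13.8 ± 0.758 against 15.6 ± 8.55 in WT, and SPCC663.09c at 57.8 ± 2.04 against 60.1 ± 2.97, and neither passed the test. WT replicate 1 was the highest library for all 3 rows and for osr1, at 25.4 against 10.02 and 11.3 in the other WT libraries.

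The largest rises lay at the ends of chromosomes I and II, which carry heterochromatin in wild-type cells. Within 25 kb of an end 18 rows were tested, but 8 of them reached 1 FPKM in mit1D only, so that a rise was the one outcome the filter left them and their values are a description. Of the other 10 rows 4 rose (SPAC212.12, SPAC212.04c, ftm4 and SPAC750.06c) and 0 fell, with a median log2 fold change of 0.46 against -0.0039 over all rows, and 3 of them reached 2-fold. Between 25 and 50 kb 5 of 15 rose and 0 fell. Between 50 and 100 kb the direction was mixed, with 14 rises and 20 falls among 78 rows. From 100 to 200 kb 54 of 235 rows rose (23.0%, against 14.8% of all rows) and 21 fell (8.94%, against 12.5%). Beyond 200 kb 690 of 5026 rose and 636 fell. Among the 31 rises past 2-fold, which hold rows that passed the filter only through mit1D, 13 lay within 100 kb of these ends, 5 in the centromere regions, 3 on the mitochondrial genome, 2 near the ends of chromosome III, 1 on the additional contig of the table and 7 elsewhere. Without the rows that could only rise, 22 rises past 2-fold remained. Of these 3 lay within 25 kb of these ends, 1 at 25 to 50 kb, 2 at 50 to 100 kb and 3 at centromere 1.

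**Figure D2:**
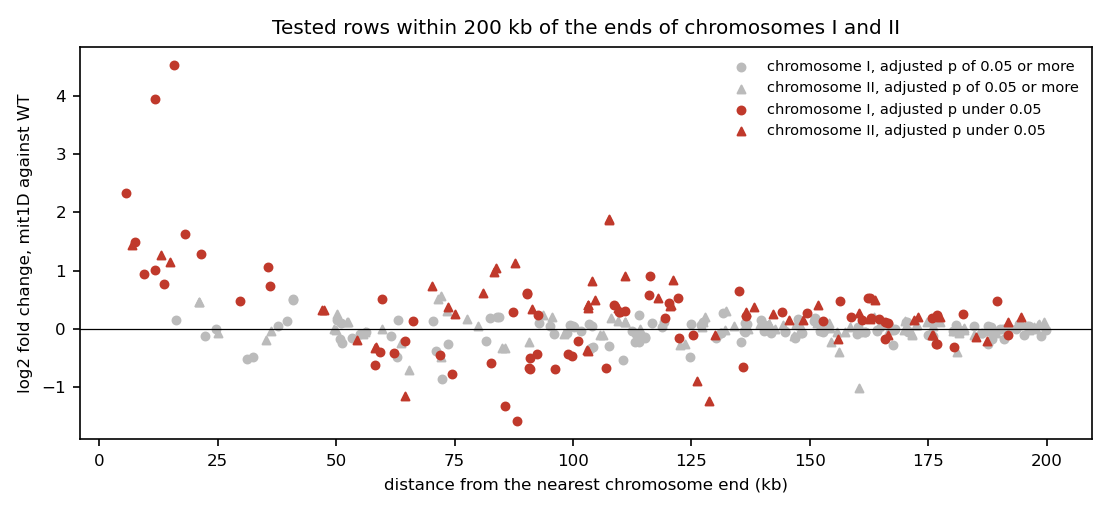
Log2 fold change of mit1D against WT (vertical axis) by distance in kb from the nearest end of the assembled chromosome (horizontal axis), for tested rows within 200 kb of the ends of chromosome I (circles) and II (triangles); red points have an adjusted p under 0.05. Of the 18 rows in the outermost 25 kb, 8 passed the filter only through mit1D and could only rise, and 4 of the other 10 rose.

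Near the left end of I, SPAC212.12 (I:15855-16226) was at 1.05, 0.590 and 1.08 in WT and 44.8, 48.5 and 36.1 in mit1D, a 47.6-fold rise (log2 fold change 4.53 ± 0.15, adjusted p = 4.6e-12 by limma). SPAC212.08c (I:11784-12994) was at 0.146, 0.127 and 0.129 in WT and 16.8, 18.5 and 14.6 in mit1D, 124-fold higher. SPAC212.08c passed the filter only through mit1D, so a rise was the one outcome left to it. Every mit1D library exceeded every WT library more than 10-fold for both rows. In chp2D the levels were 44.6 ± 5.80 and 16.7 ± 1.73, and the 95% intervals of the log2 difference from mit1D ran from -0.34 to 0.25 and from -0.18 to 0.17. The 250 bases before the RefSeq starts of these genes are shown because they end in the same letters, and the identity ran on into the genes. They are ASM294v3 I:15605-15854 and I:11908-12157, both on the plus strand, with the shared 22 bases in capitals. The stretches overlap the non-coding genes prl101 and SPNCRNA.2007 of RefSeq, respectively, and the deposited row of SPAC212.08c starts at 11784 in the table's own build, so the stretch shown for it may lie inside the counted row.
SPAC212.12: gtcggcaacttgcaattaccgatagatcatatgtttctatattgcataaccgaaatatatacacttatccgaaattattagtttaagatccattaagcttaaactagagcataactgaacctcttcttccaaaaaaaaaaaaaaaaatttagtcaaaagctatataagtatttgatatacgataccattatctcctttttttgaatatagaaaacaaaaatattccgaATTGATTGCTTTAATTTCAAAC
SPAC212.08c: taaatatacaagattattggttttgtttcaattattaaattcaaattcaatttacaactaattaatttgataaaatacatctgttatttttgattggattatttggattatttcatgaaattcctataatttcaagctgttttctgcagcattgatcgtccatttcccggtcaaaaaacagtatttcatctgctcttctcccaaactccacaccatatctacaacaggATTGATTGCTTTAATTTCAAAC
The same 22 bases stood in 3 of 5112 promoters of protein-coding genes (0.0587%), these and that of SPAC750.07c near the other end of chromosome I, a row listed at 0 in WT, mit1D and chp2D. From their starts onward SPAC212.12 and SPAC212.08c were identical over 288 bases. How the authors' counting shared reads between such copies is not given in the sources used here, so the levels of the single copies are uncertain.

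Neighbouring rows of the same end rose from very low levels. SPAC212.10, SPAC212.09c and SPAC212.06c passed the filter only through mit1D, so a rise was the one outcome left to them. The pseudogene SPAC212.10, 5.73 kb from the end, had 8 reads in WT and 273 in mit1D. Its level went from 0.0477 ± 0.0423 to 4.29 ± 0.252 (log2 fold change 2.34 ± 0.10). SPAC212.09c, also a pseudogene, had 6 reads in WT and 315 in mit1D, with levels of 0.0147 ± 0.0205 and 1.86 ± 0.209. SPAC212.06c rose 9.12-fold to 3.13 ± 0.146, and SPAC212.04c, named after its values were seen, rose 2.85-fold from 3.47 ± 0.160 to 9.89 ± 0.605. The corresponding chp2D levels were 2.96 ± 0.453, 1.51 ± 0.269, 2.65 ± 0.267 and 10.1 ± 0.745. None of these 4 rows passed the test against chp2D. At the right end of chromosome I, ftm4 rose 2.25-fold from 4.09 ± 0.855 to 9.19 ± 0.664 and SPAC750.06c 2.38-fold from 2.06 ± 0.305 to 4.90 ± 0.427.

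The telomere-linked helicase genes tlh1 and tlh2, which encode RecQ-type helicases, are the outermost genes of chromosomes I and II. The level of tlh2 was 0.147, 0.186 and 0.179 in WT and 1.97, 2.26 and 2.32 in mit1D, 12.8-fold higher. The log2 fold change was 1.44 ± 0.08, and chp2D stood at 2.77 ± 0.101. The row of tlh2 passed the filter only through mit1D, which left a rise as the one outcome, so its values are a description. The lowest mit1D library was more than 10-fold above the highest WT library. The row of tlh1 stayed under the filter and was not tested, at 0.0109 ± 0.00305 in WT and 0.469 ± 0.115 in mit1D, from 15 and 277 reads. Beside tlh2, the pseudogenes SPBCPT2R1.10 and SPBCPT2R1.07c rose 41.3-fold and 22.5-fold, to 1.51 ± 0.352 and 1.34 ± 0.139. They too passed the filter only through mit1D. These families have near-identical members, so their levels are uncertain in the same way.

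**Figure D3:**
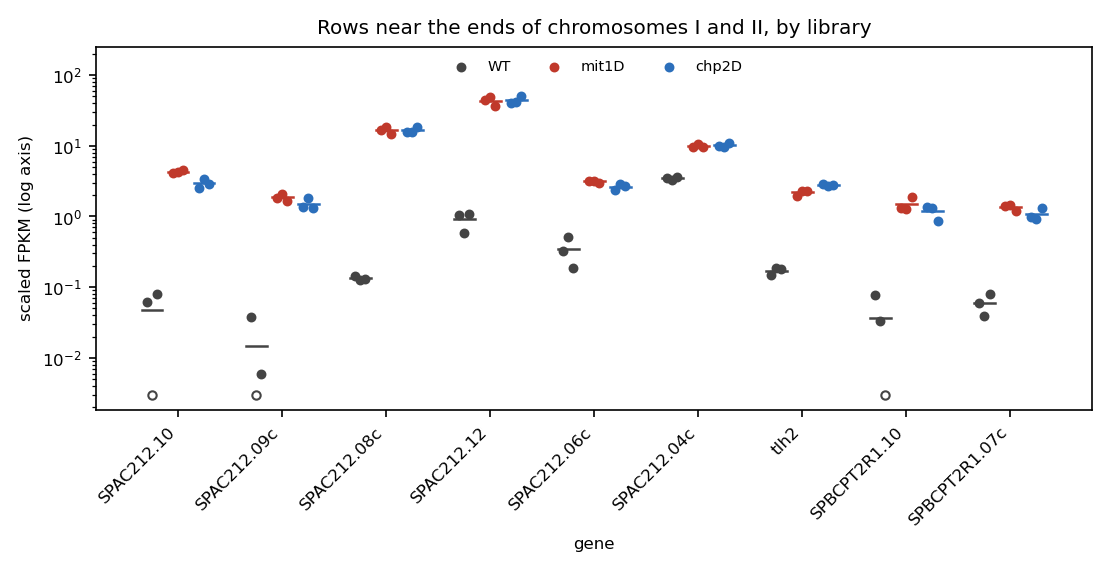
Scaled FPKM (vertical axis, log scale) of 9 rows near the ends of chromosomes I and II in each WT, mit1D and chp2D library (points), with group means (lines); open points at the bottom mark libraries at 0. In all 9 rows the WT libraries lie below the mit1D and chp2D libraries. All but SPAC212.12 and SPAC212.04c passed the filter only through mit1D, so that for them a rise was the one outcome left.

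Counted end by end over 100 kb, the rows did not move one way. Without the rows that passed the filter only through mit1D (5 at the left end of I and 3 at the right end of II), 5 of 31 rows rose and 13 fell at the left end of I and 1 of 20 rose and 0 fell at the right end of II. At the right end of I 8 of 30 rose and 3 fell, and at the left end of II 9 of 22 rose and 4 fell. Over all tested rows 14.8% rose and 12.5% fell. The falls at the left end of I numbered 6 without mit1D replicate 2 and 8 without WT replicate 3, and the rises at the left end of II numbered 4 without mit1D replicate 2 or 3. At the left end of II the pseudogene SPBPB10D8.03 rose from 3.73 ± 0.707 to 9.34 ± 0.352, while cmt2, a catechol O-methyltransferase gene, fell from 14.5 ± 5.97 to 5.66 ± 0.896. The call of cmt2 was lost without WT replicate 1, without mit1D replicate 2 or by voom on recovered reads. Chromosome III, whose ends carry ribosomal DNA, had 19 rises and 9 falls among 97 rows, close to the shares over all rows. The largest there were the overlapping pair SPCC70.08c, from 76.8 ± 9.13 to 173 ± 7.15, and SPNCRNA.1292, from 49.6 ± 6.06 to 111 ± 4.49, both 2.25-fold.

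In the centromere regions the largest rises were in non-coding rows. Left of centromere 1, SPNCRNA.934 (I:3745764-3748595) had 22.9, 26.9 and 19.8 in WT and 98.3, 103 and 109 in mit1D, a 4.46-fold rise (log2 fold change 2.12 ± 0.20, adjusted p = 2.9e-06), with chp2D at 89.4 ± 5.52. SPNCRNA.935 covers almost the same bases on the other strand and moved alike, from 23.0 ± 3.66 to 101 ± 5.45. The 2 rows had nearly equal levels in WT and in mit1D and cannot be read apart. No source used here says whether the counting was by strand. The groups did not overlap for either row. Next to them per1, an amino acid permease gene, rose 2.08-fold from 24.5 ± 3.23 to 50.9 ± 2.87. In the same region SPNCRNA.234 rose 7.37-fold to 2.17 ± 0.0727. At centromere 2, SPNCRNA.373 rose 5.70-fold to 2.53 ± 0.385 and SPNCRNA.359 2.87-fold to 1.55 ± 0.0558. SPNCRNA.234, SPNCRNA.373 and SPNCRNA.359 passed the filter only through mit1D. Of the other rows 5 of 14 rose and 2 fell at centromere 1, and 1 of 7 rose and 2 fell at centromere 2, while at centromere 3 1 of 14 rose and 2 fell. The falls included tRNA rows, such as SPBTRNAMET.05 from 50.1 ± 3.61 to 27.1 ± 3.17. The silent mating-type region had 1 rise and 5 falls among 26 rows, all under 1.5-fold. Beside these regional counts, 14.8% of all tested rows rose and 12.5% fell. Of the Tf2 retrotransposons, near-identical copies of which 2 of 13 could be tested, Tf2-11 rose from 4.58 ± 1.14 to 8.89 ± 0.627 and Tf2-10, which passed the filter only through mit1D, from 0.690 ± 0.04997 to 1.42 ± 0.0575.

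Among rows not placed within 100 kb of a chromosome end, in the centromere regions or at the deleted locus, the largest rises included the following genes. The first, alr2, lies just past that limit, 107.6 kb from the left end of II. For SPBC460.05 the distance from an end is not known. The alanine racemase gene alr2 (II:107583-109353) was at 13.2, 21.2 and 13.4 in WT and 58.4, 57.1 and 66.4 in mit1D, a 3.802-fold rise (log2 fold change 1.89 ± 0.29, adjusted p = 0.00022), with chp2D at 63.4 ± 2.77. The overlapping SPNCRNA.1309 rose 3.73-fold. Nearby the amino acid transporter gene aat1 rose 1.88-fold, from 116 ± 11.5 to 217 ± 3.97. SPAPB24D3.03 rose 3.16-fold to 69.7 ± 2.65, rtc3 2.84-fold to 78.4 ± 3.93 and SPBC460.05, on the additional contig whose place in the genome the table does not give, 3.03-fold to 50.1 ± 1.57. For SPAPB24D3.03 and SPBC460.05, as for alr2, WT replicate 2 was the highest WT library and still lay below every mit1D library.

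The largest fall outside the deleted locus and the chromosome III block was that of omt3, a non-coding RNA divergent from mei2. The row of omt3 (I:4516070-4517070) was at 23.2, 14.8 and 17.0 in WT and 2.54, 3.35 and 2.51 in mit1D, 6.56-fold lower (log2 fold change -2.33 ± 0.22, adjusted p = 2.6e-06). The gene mei2 (I:4510983-4515015, minus strand) encodes an RNA-binding protein that switches cells into meiosis. Its level was 15.98, 9.57 and 12.1 in WT and 2.74, 2.75 and 1.93 in mit1D, 5.07-fold lower (log2 fold change -1.95 ± 0.21, adjusted p = 8.4e-06). Both groups were clearly separated, with chp2D at 2.73 ± 0.318 for omt3 and 2.67 ± 0.387 for mei2. The transcription factor Ste11 activates mei2 through TR boxes. The 250 bases before the RefSeq start of mei2 (ASM294v3, I:4515026-4515275, minus strand) are shown because they held 2 copies of the TR box core TTCTTTGT, in capitals, a motif found on either strand in 3.03% of 5112 promoters.
mei2: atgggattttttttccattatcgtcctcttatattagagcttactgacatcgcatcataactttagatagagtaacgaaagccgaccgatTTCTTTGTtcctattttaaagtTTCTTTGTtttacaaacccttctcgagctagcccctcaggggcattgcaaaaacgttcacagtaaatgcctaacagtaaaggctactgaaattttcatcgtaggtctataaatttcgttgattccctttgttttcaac
The level of ste11 itself was 28.7 ± 10.3 in WT and 20.2 ± 1.23 in mit1D and did not pass the test (adjusted p = 0.15 by limma), with 40.3 in WT replicate 1 against 20.8 and 24.9 in the others. Of 17 genes of mating and sexual differentiation 3 rose and 4 fell (41.2% changed, against 27.3% of all rows). The falls included ste4, whose product acts in pheromone signalling, from 12.5 ± 0.700 to 9.10 ± 0.379. The rises included esc1, from 16.3 ± 2.41 to 25.1 ± 5.09, a call lost without mit1D replicate 2 or WT replicate 2 or 3, and the formin gene fus1, from 7.02 ± 0.333 to 8.46 ± 0.366. The pheromone gene mfm2 fell from 98.5 ± 5.46 to 62.1 ± 1.59 and was the only changed one of 6 M-type genes.

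Meiotic transcripts that vegetative cells destroy through the RNA-binding protein Mmi1, together with regulators of this pathway, made a list of 18 genes. In this list 0 rose and 9 fell (50%, against 12.5% of all rows), with a median log2 fold change of -0.16. Examples are spo5, from 3.31 ± 0.345 to 2.15 ± 0.0474 (log2 fold change -0.45 ± 0.08, adjusted p = 0.0011), and mug10, from 4.89 ± 0.299 to 3.46 ± 0.340. The dynactin gene ssm4 fell from 8.51 ± 0.695 to 6.35 ± 0.166. Values of mei4 (6.35 ± 0.707 and 5.80 ± 0.496) and rec8 (5.77 ± 0.261 and 4.82 ± 0.340) did not pass. The count of falls was 5 without mit1D replicate 2 or 3 or without WT replicate 1 or 3. The summed level of the list was 384 to 401 in WT, 358 to 362 in mit1D and 345 to 357 in chp2D. Of 7 markers of meiosis and sporulation only spo5 passed the test. Besides mei4 and rec8, the others were spo6 at 32.8 ± 1.43 in WT and 33.0 ± 1.49 in mit1D, meu14 at 13.8 ± 0.0838 and 13.7 ± 0.411, mde10 at 14.96 ± 0.529 and 14.05 ± 0.708, and isp3 at 23.7 ± 6.55 and 21.8 ± 1.17. Of 23 tested genes named meu, for meiotic expression upregulated, 4 rose and 3 fell (30.4%), and of 89 named mug, for meiotically upregulated gene, 8 rose and 12 fell (22.5%), shares near that of all rows. They included meu18, from 32.0 ± 0.328 to 39.6 ± 0.370, meu29, from 36.3 ± 0.363 to 29.7 ± 0.848, and mug14, from 18.7 ± 3.79 to 7.26 ± 0.430. The meu rises numbered 2 without mit1D replicate 2 or WT replicate 3, and the mug falls 7 without mit1D replicate 3 or WT replicate 1.

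Several genes of iron and heme uptake were lower. Of 13 tested, 6 fell (46.2%, against 12.5% of all rows), 2 rose and 5 did not pass, with a median log2 fold change of -0.30. The pair fio1 and fip1, a multicopper oxidase and an iron permease that together import iron, is divergently transcribed, with RefSeq starts 303 bases apart. The level of fio1 (I:4235080-4237874) was 66.0, 109 and 189 in WT and 43.8, 28.8 and 54.1 in mit1D (log2 fold change -1.42 ± 0.34, adjusted p = 0.0064), and that of fip1 was 77.5, 101 and 195 in WT and 56.4, 39.0 and 65.01 in mit1D (-1.12 ± 0.29, adjusted p = 0.010). The groups did not overlap, but the WT libraries spread nearly 3-fold, with replicate 3 highest. The siderophore transporter gene str3 fell from 57.3 ± 39.2 to 16.9 ± 7.93, and its relative str1 from 139 ± 50.6 to 82.7 ± 17.7. The cell-surface heme uptake gene shu1, also among the 6 falls, went from 3.21 ± 1.41 to 0.622 ± 0.0990. The row of shu1 passed the filter only through WT, so a fall was the one outcome left to it. The rises were fep1, the GATA-type repressor of iron uptake genes, from 52.6 ± 2.89 to 59.4 ± 2.42, and sib1, the ferrichrome synthetase, from 15.7 ± 0.106 to 18.4 ± 1.71. The rises in the list numbered 0 without mit1D replicate 2 and 1 without WT replicate 3 or with FPKM as deposited. The ferric reductase gene frp1 had 24.5 ± 14.5 and 10.8 ± 3.08 and did not pass. The groups of str3 overlapped, with a highest mit1D value of 25.0 and a lowest WT value of 24.7. The calls of str3 and fip1 were lost without WT replicate 3 or without mit1D replicate 2, where the falls in the list numbered 3, and that of str3 also by voom or with only the 2 groups fitted. In chp2D the levels of fio1 and fip1 were 47.8 ± 9.07 and 57.5 ± 10.3. The promoter of fio1 (RefSeq ASM294v3, I:4234822-4235071, plus strand) is shown with a GATA element TGATAA, the letters that Fep1-type factors bind, in capitals; 23.9% of all promoters held it on either strand, as did 8 of the 13 listed genes.
fio1: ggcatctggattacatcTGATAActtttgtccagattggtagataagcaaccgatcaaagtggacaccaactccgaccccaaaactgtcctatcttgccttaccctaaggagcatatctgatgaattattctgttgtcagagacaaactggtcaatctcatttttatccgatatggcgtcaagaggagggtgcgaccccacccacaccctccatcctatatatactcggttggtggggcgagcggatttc

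**Figure D4:**
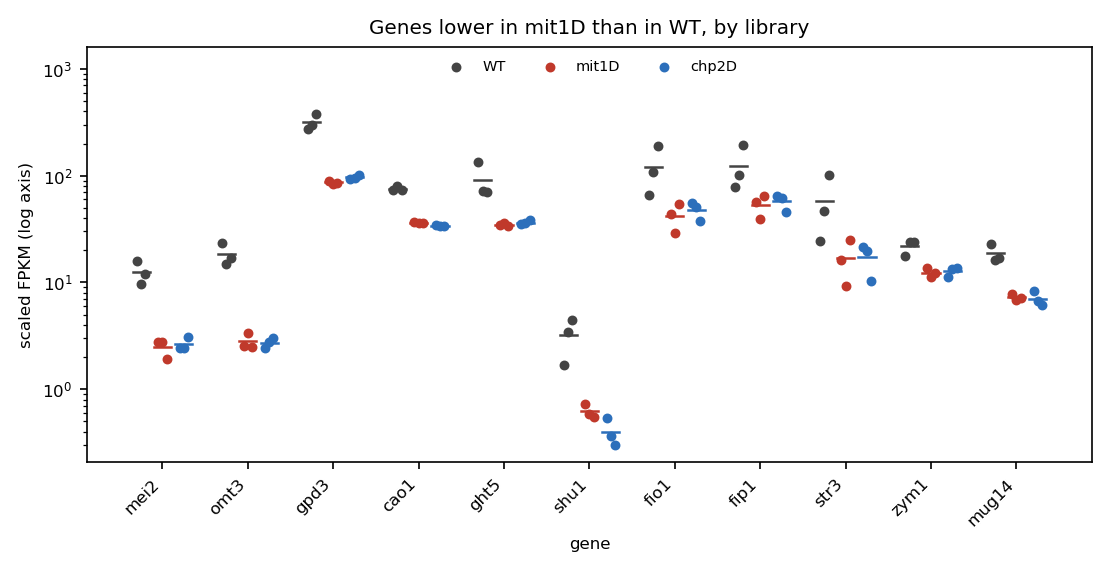
Scaled FPKM (vertical axis, log scale) of 11 genes that fell in mit1D, in each WT, mit1D and chp2D library (points), with group means (lines). The WT and mit1D libraries do not overlap for 10 of the 11, among them shu1, which passed the filter only through WT. For str3 the highest mit1D library, at 25.0, lies above the lowest WT library, at 24.7.

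Carbon metabolism changed at single genes. The glyceraldehyde-3-phosphate dehydrogenase gene gpd3 (II:578063-580056) was at 275, 298 and 374 in WT and 89.3, 84.2 and 86.3 in mit1D, 3.65-fold lower (log2 fold change -1.84 ± 0.17, adjusted p = 2.2e-06), with chp2D at 96.4 ± 4.14. Every mit1D library lay far below the lowest WT library. Its paralog tdh1 did not pass the test. Of 19 genes of glycolysis and gluconeogenesis 3 rose and 2 fell (26.3% changed), near the 27.3% of all rows. The hexose transporter gene ght5 was at 134, 71.1 and 70.9 in WT and 34.8, 35.9 and 33.6 in mit1D, 2.65-fold lower (log2 fold change -1.31 ± 0.25, adjusted p = 0.0012). WT replicate 1 was the highest, and the other WT libraries still lay above all of mit1D. Of the 7 hexose transporter genes 2 fell (28.6%, against 12.5% of all rows) and 0 rose, and the share changed in either direction was also near that of all rows. The second fall was that of ght3, a gluconate transporter gene, from 3.28 ± 0.460 to 1.85 ± 0.322, a call lost without WT replicate 2 or mit1D replicate 2. The copper amine oxidase gene cao1, named after its values were seen, fell 2.09-fold from 75.8 ± 3.73 to 36.2 ± 0.375, with the overlapping SPNCRNA.528 and SPNCRNA.860 at 2.39-fold and 2.33-fold lower.

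Of 20 heat shock and chaperone genes 8 rose (40%, against 14.8% of all rows) and 2 fell (10%, against 12.5%). The Hsp70 gene ssa1 was at 21.7, 29.0 and 27.3 in WT and 38.0, 38.2 and 39.1 in mit1D (log2 fold change 0.56 ± 0.07, adjusted p = 5.6e-05). Smaller rises were those of hsp16, a small heat shock protein gene, from 31.4 ± 1.22 to 40.03 ± 2.70, of hsp104, a disaggregase gene, from 51.1 ± 6.09 to 63.3 ± 1.87, and of hsp90, from 999.9 ± 42.4 to 1241 ± 43.1. The stress gene hsp9 fell from 474 ± 213 to 253 ± 18.04, with WT replicate 2 at 718, and lost its call without that library, without any 1 mit1D library or with only the 2 groups fitted. The falls in the list then numbered 0 or 1. Of 24 genes of oxidative stress and metal defence 0 rose (against 14.8% of all rows) and 6 fell (25%, against 12.5%). The share changed in either direction was near the 27.3% of all rows. The falls included the metallothionein gene zym1, from 21.8 ± 3.498 to 12.4 ± 1.299, the sulfiredoxin gene srx1, from 50.8 ± 7.93 to 33.5 ± 3.32, and the glutathione transferase gene gst2, from 118 ± 10.6 to 89.3 ± 3.797. The catalase gene ctt1 stood at 32.8 ± 4.94 and 36.6 ± 1.68 and did not pass. The promoter of hsp90 (RefSeq ASM294v3, I:3891140-3891389, minus strand) is shown with its match to a heat shock element, GAANNTTC, in capitals. These letters occurred in 9.49% of all promoters.
hsp90: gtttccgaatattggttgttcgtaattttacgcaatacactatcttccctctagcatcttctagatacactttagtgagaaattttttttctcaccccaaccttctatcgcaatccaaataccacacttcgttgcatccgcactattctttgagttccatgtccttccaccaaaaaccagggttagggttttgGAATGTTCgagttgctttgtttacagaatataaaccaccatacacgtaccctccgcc

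Of 138 cytosolic ribosomal protein genes 36 fell, 1 rose and 101 did not pass. The share changed, 26.8%, was close to the 27.3% of all rows, and the share lower was 26.1% against 12.5%, with a median log2 fold change of -0.083. The falls numbered 77 with FPKM as deposited and 23 without WT replicate 2, and with quantile normalization there were 47 falls and 15 rises. The largest falls were 1.40-fold, in rpl4102, from 2630 ± 152 to 1882 ± 81.7 (log2 fold change -0.48 ± 0.06, adjusted p = 3.2e-05 by limma), and in rps3001, from 1595 ± 101 to 1143 ± 42.7. In chp2D these stood at 1962 ± 26.0 and 1236 ± 20.6. Several of these genes have near-identical paralogs, whose reads may be shared. Most ribosomal protein promoters carry a Homol-D box, searched as CAGTCACA on both strands. It was found in 63.8% of the promoters of the list, in 25 of the 37 changed members and in 2.62% of all promoters. The promoter of rpl4102 (RefSeq ASM294v3, I:2853932-2854181, minus strand) is shown with the box in capitals.
rpl4102: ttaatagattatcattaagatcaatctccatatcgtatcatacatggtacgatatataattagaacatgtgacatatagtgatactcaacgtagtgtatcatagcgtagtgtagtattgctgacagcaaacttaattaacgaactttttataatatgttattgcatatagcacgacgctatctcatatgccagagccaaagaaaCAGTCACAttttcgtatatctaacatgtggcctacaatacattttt
Proteasome subunit genes had 6 falls and 1 rise among 34 (20.6% changed, against 27.3% of all rows). All were small, such as rpn11 from 141 ± 3.92 to 128 ± 2.55, and the falls numbered 14 with FPKM as deposited.

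Small nucleolar and spliceosomal RNAs fell in 28 of 60 rows (46.7%, against 12.5% of all rows) and rose in 3, with a median log2 fold change of -0.26. For example, sno20 was at 94.96, 93.9 and 110 in WT and 45.5, 52.3 and 57.7 in mit1D (log2 fold change -0.93 ± 0.11, adjusted p = 2.5e-05), and the box C/D RNA snoU14 fell from 174 ± 18.7 to 109 ± 6.28. The groups did not overlap in either. Rows under 200 bases took 0.400 to 0.406% of gene reads in WT, 0.363 to 0.389% in mit1D and 0.371 to 0.375% in chp2D, and the part of library preparation in these falls was not tested. Among the 162 rows of 5000 bases or more, 49 rose (30.2%, against 14.8% of all rows) and 7 fell (4.32%, against 12.5%). Mitochondrially encoded genes rose in 8 of 11 rows (72.7%, against 14.8% of all rows) and fell in 0, with a median of 0.37. The row SPMIT.03 was at 587, 671 and 468 in WT and 980, 1062 and 1058 in mit1D, a 1.80-fold rise (log2 fold change 0.86 ± 0.11, adjusted p = 6.6e-05). Mitochondrial rows took 2.74 to 2.95% of gene reads in WT, 3.48 to 3.59% in mit1D and 3.37 to 3.44% in chp2D. Non-coding RNAs had 219 rises and 154 falls among 1419 rows (26.3%), a share near that of all rows. Of these non-coding rows 1263 overlap another tested row (203 rose and 135 fell, 26.8% changed). The 156 that overlap none had 16 rises and 19 falls (22.4%). In 303 pairs of rows sharing at least 50% of the shorter, both rows changed, and 293 of these pairs moved in the same direction. Changes of overlapping non-coding rows thus cannot be told apart from those of their neighbours.

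**Figure D5:**
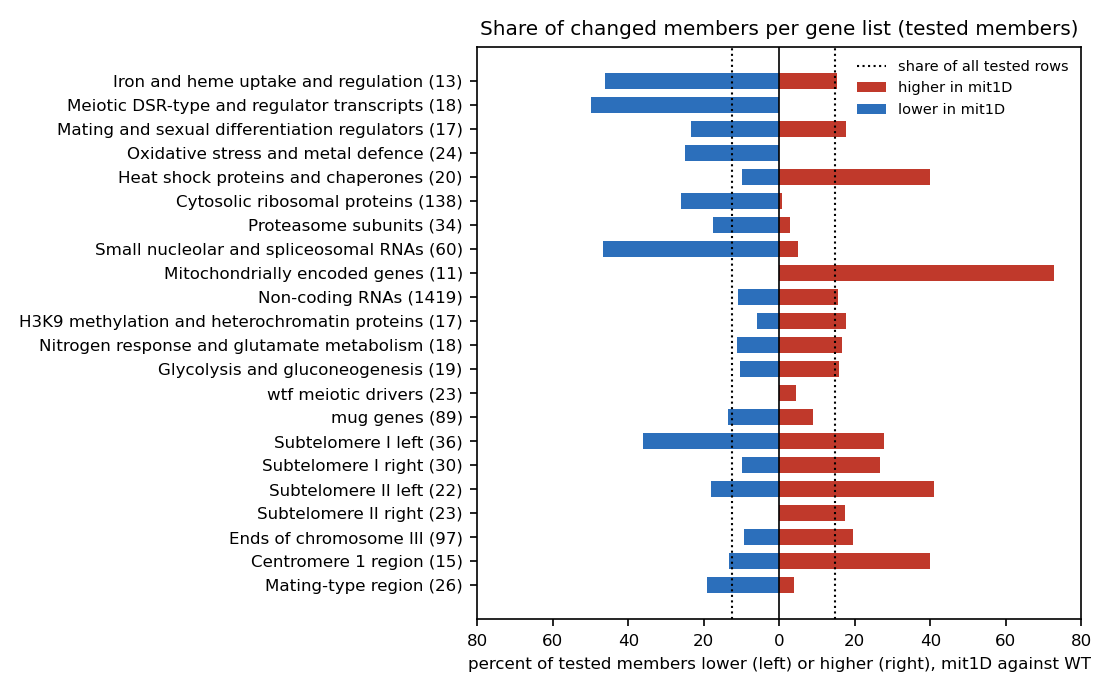
Percent of tested members (number in brackets) of the gene lists drawn, which leave out Tf2 retrotransposons, telomere-linked helicases and other short lists, that rose (red, right) or fell (blue, left) in mit1D against WT, with the shares over all 6628 rows as dotted lines (14.8% higher, 12.5% lower). Of the lists drawn, mitochondrially encoded genes lie farthest to the right and meiotic, small nucleolar and iron genes farthest to the left; chromosome-end and centromere lists include rows that passed the filter only through mit1D.

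The shares of genes of other silencing factors that changed were near or under the 27.3% of all rows, except among histone deacetylases. Of 5 deacetylase genes other than clr3, 2 rose and 0 fell (40%). Of 17 genes of histone H3 lysine 9 methylation and heterochromatin 3 rose and 1 fell (23.5%), and the rises numbered 1 or 0 under 7 of the alternatives. The methyltransferase gene clr4 had 7.51 ± 0.620 in WT and 8.92 ± 0.619 in mit1D (log2 fold change 0.22 ± 0.06, adjusted p = 0.013), and the HP1 gene swi6, at 59.8 ± 1.37 and 62.5 ± 0.734, did not pass. The call of clr4 was lost without WT replicate 2 or 3, without mit1D replicate 2 or with only the 2 groups fitted. Among 10 RNA interference genes 1 rose and 1 fell (20%), and among 15 remodelers of the Snf2 family other than Mit1 3 rose and 0 fell (20%), the largest being rrp1, from 7.16 ± 0.669 to 8.49 ± 0.872. That call too was lost in 6 alternatives. The related remodelers hrp1 and hrp3 did not pass, with 39.5 ± 1.23 and 38.6 ± 0.385 for hrp1 and 36.2 ± 1.073 and 37.3 ± 1.62 for hrp3. Of the 10 genes of core histones and H2A.Z, hht2 fell from 511 ± 10.6 to 427 ± 9.50 and hta2 rose from 255 ± 37.1 to 318 ± 8.91, the latter a call lost without any 1 mit1D library or without WT replicate 1 or 3. Of 23 wtf meiotic drivers, 1 rose and 0 fell. The nitrogen-response list of 18 had 3 rises and 2 falls (27.8%, near the share of all rows), with per1 and aat1 the largest.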

How the data were processed

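RNA was measured in 18 libraries. The table deposited by the authors gives 1 FPKM per row and library. Per the submitters' processing notes reads were aligned with GSNAP 2013-02-25 to ASM294v2. The counting program and its strand setting were not given in the sources used here. The table's coordinates are used for rows, and 3 sample columns tied to no label were not used. In every library 100% of nonzero FPKM values times length were whole multiples of 1 read (within 0.1 read), which gave depths; intervals and floors cover counting error only. Names came from RefSeq ASM294v3, which matched 6842 of 7018 IDs, 4408 with a symbol, and sequences and their coordinates from the same assembly.

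Libraries were scaled by the median ratio to the geometric mean over 6484 rows with FPKM of at least 1 in all 18 (factors 0.971 to 1.067). Values of log2(scaled FPKM + 1) were fitted with limma 3.58.1 (R 4.3.3; lmFit, contrasts.fit, eBayes with trend) over all 18 libraries with 1 coefficient per genotype, 2-sided and Benjamini-Hochberg adjusted, threshold 0.05. The code was tested on simulated data. Named by rule were the complex's genes, the 15 largest rises and falls with separated groups, up to 4 changed members per list, the neighbours of mit1, the auxotrophic marker genes, tlh1 and tlh2. Other rows were named after their values were seen. The members, lists and rule were chosen with earlier results of these data known, and mam3 was moved to the M list after the table was seen. P-values set a difference of 2 group means against the spread between replicate libraries within genotypes, estimated over all 18 libraries. For mit1D against WT that difference includes any difference between library series. Python 3.11.15 with pandas 2.3.3, scipy 1.17.1 and matplotlib 3.10.9 made tables, exact intervals and figures. Alternatives covered scaling, pseudocount, filter, model, block and left-out libraries.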

Additional observations from a re-analysis of the deposited data

How the results depend on the processing

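All 14 alternatives kept the direction of the 132 changed rows named by rule, and 36 of these lost their call under at least 1. The count of changed rows against WT was 1838 with FPKM as deposited, 2008 with quantile normalization, 1803 with a pseudocount of 0.1, 1825 without a filter, 1751 with at least 5 FPKM, 1542 with only the 2 groups and 1773 by voom on recovered reads. Leaving out 1 library at a time gave 1290 (without mit1D replicate 2) to 1683. With quantile normalization 46.6% of changed rows were higher. Against chp2D the counts lay between 8 and 15. Same-numbered mit1D and WT libraries had deviations from their group means correlated at -0.11, -0.014 and 0.14, and 1 of 3 mit1D libraries correlated best with its own number, so the numbers were not taken to pair the samples. With the replicate number as a block 2180 rows changed against WT and 12 against chp2D. Several rows at the chromosome ends rest on fewer than 10 reads in all WT libraries together.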
